A study of Rattus norvegicus with 6 samples.

Results

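The genes described here are the death receptor gene Fas, the caspase genes Casp6, Casp8 and Casp9, and the Bcl2 family genes Bik, Bax, Bcl2, Bcl2l1 and Mcl1. They were chosen by name, with earlier results of these data known. Every probe set, a group of short probes against part of a transcript, counted where its symbol in the platform annotation was a member. Of the 9 genes named, 8 had a probe set with that symbol alone, out of 14217 such genes on the array, and these 8 genes had 16 probe sets out of 31099. The only probe set annotated to Bax also carries the symbol LOC681314, so no value is given to Bax itself.

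Expression was measured by Affymetrix array in neuronal progenitor cells isolated from the cortex of rat embryos at stage E15.5. All cultures grew on fibronectin with 20 ng/ml bFGF, a mitogen for such cells. The vehicle group is 3 RNA samples of cells given dimethyl sulfoxide (DMSO), and the corticosterone group is 3 RNA samples of cells given 1 µM corticosterone, the main rodent glucocorticoid, each for 48 h. The samples form couples 1, 2 and 3, each of a vehicle and a corticosterone sample, and the comparison asks how the hormone changed the transcripts. Rat strain, sex, the number of embryos and whether the couples were separate cultures were not among the descriptions used here, so p-values may measure technical spread alone. RNA of a whole culture cannot tell fewer cells of a type from less RNA per cell.

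Apoptosis can start at the cell surface, where Fas and related receptors recruit the adaptor Fadd and activate caspase-8, or at mitochondria, where cytochrome c and Apaf1 activate caspase-9. Bax and Bak open the mitochondrial outer membrane, Bcl2, Bcl-xL (the product of Bcl2l1) and Mcl1 hold them back, and short BH3-only proteins such as Bik bind and block those guardians. In the developing cortex this machinery removes many progenitors and young neurons. Much of its regulation is at the protein level, which arrays do not read.

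Values are MAS5 signals on a linear scale, scaled by array. A background signal of 22.8 was set from control probe sets without a target, and probe sets with a mean signal under about 63.6 were left out of the test as too dim. Of 18625 probe sets tested, 2953 (15.9%) passed in limma at an adjusted p under 0.05, and 59.3% of these calls were higher with corticosterone. With each array centred on its median, 30.4% of the calls were higher, and the median log2 fold change moved to −0.11 from −0.004. The median signal was higher on the corticosterone array of every couple, with a range of 108 to 122 under vehicle and 124 to 134 under corticosterone. Probe sets above background made up 75.3% to 78.1% with vehicle and 78.3% to 80.6% with corticosterone, and the 3′ to 5′ signal ratio of Actb was 1.55 to 2.12 and 1.76 to 2.03.

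Progenitor markers were bright on every array: Vim lay between 20453 and 29877, Fabp7 between 20415 and 23779 and Sox2 between 7528 and 9935. Of 11 progenitor markers tested 1 rose and 10 did not pass. Of 5 astrocyte markers tested 4 rose with the treatment, namely S100b, Slc1a3, Gja1 and Sparcl1. The summed signal over 8 genes was 26242 to 35065 with vehicle and 45034 to 51717 with corticosterone. Slc1a3, Sparcl1 and Gja1 made up most of both sums. Gfap did not pass (limma adjusted p = 0.13), and Aqp4, Slc1a2 and Aldh1l1 lay below the filter on low signals. Of the meningeal, pericyte and fibroblast markers 7 of 10 tested were higher, with sums over 15 genes of 13597 to 16267 and 23065 to 25454. Igfbp2 rose and made up most of these sums, at 12043 to 14184 and 17434 to 19152. Fbln2, Fn1, S100a4 and Acta2 rose by 1.58, 1.46, 2.71 and 1.03 on the log2 scale. Of the collagens on this list, Col1a2 and Col6a1 rose, by 0.99 and 1.64 on the log2 scale (limma adjusted p = 0.013 and 0.00029). Col6a1 read 19.2, 61.3 and 7.99 with vehicle, each under the filter signal, and passed the filter only through its corticosterone arrays. Col1a2 read 6.42 on the vehicle array of couple 1, under background. Col1a1 and Col3a1 did not pass (limma adjusted p = 0.50 and 0.33) and were lower with corticosterone in couple 3. Dcn, Lum, Pdgfrb, Rgs5 and Foxc1 lay below the filter on low signals. Lum read 136 and 143 on the arrays of couple 2 and 0.48 to 2.66 on the others. Col1a1, Col1a2 and Col3a1 were also brightest in couple 2 under both treatments. Other lists held lower calls. Of 5 oligodendrocyte lineage markers tested 2 fell, Pdgfra by 1.64 and Cnp by 0.30 on the log2 scale (adjusted p = 2.9e-05 and 0.032), with sums over 8 genes of 21850.1 to 27176 and 18526 to 25248. Of 8 neuron markers tested 1 fell, Tubb3 by 0.52 (adjusted p = 0.034), with sums over 10 genes of 10584 to 11455 and 7746 to 11442. Of 8 microglia and macrophage markers 2 were bright enough to test and 0 passed in limma (0 also at an unadjusted p under 0.05). Their sums were 247 to 275 and 302 to 348, and Itgam lay at or below background on all 6 arrays. All 7 endothelial markers measured were below the filter on low signals. The part of these other cell types in the results below was not tested.

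Of the 8 member genes 6 had a probe set bright enough to test, and 3 of those rose (Fas, Casp6 and Bik), 0 fell and 3 did not pass (Casp9, Bcl2l1 and Mcl1), where 19.5% of all genes tested were called, 11.7% as higher and 7.77% as lower. Casp8 and Bcl2 lay below the filter. Of the 8 member probe sets tested, 3 rose, where 9.4% of all probe sets tested rose and 6.45% fell. Fas passed the filter only through its corticosterone arrays, and the members were chosen with earlier results of these data known. The count and median of the members are therefore a description and no test against all genes. The median log2 fold change of the 6 genes was 0.50, against −0.002 over all 9910 genes tested. In the model without the couple as a term 0 members passed (3 at an unadjusted p under 0.05).

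**Figure D1:**
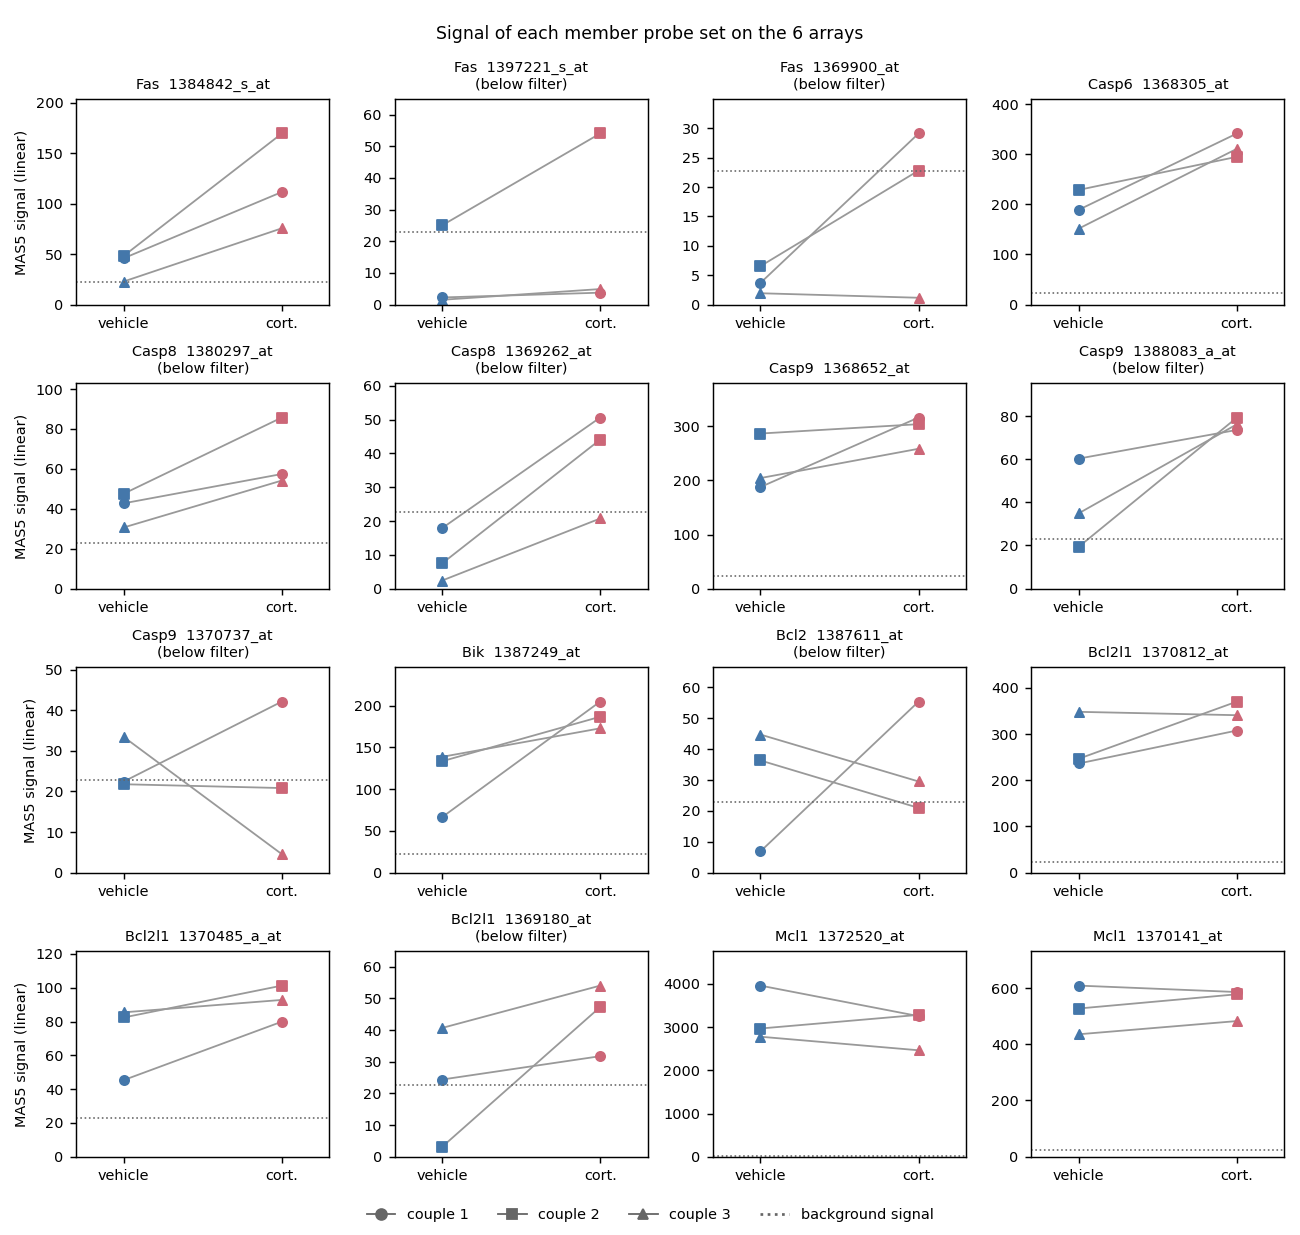
Each panel is a member probe set, with the MAS5 signal on a linear axis from 0 for the vehicle (blue) and corticosterone (cort., red) array of each couple, joined by a line; the dotted line is the background signal of 22.8. The corticosterone points of Fas 1384842_s_at, Casp6, Bik, Casp9 1388083_a_at and both Casp8 probe sets lie above all their vehicle points, while those of Mcl1 overlap them.

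Fas, the receptor for Fas ligand and the founding death receptor of the family, rose from a low level. On probe set 1384842_s_at the vehicle signals of couples 1, 2 and 3 were 45.9, 48.2 and 22.8, and their corticosterone signals were 112, 169.5 and 75.6. Every corticosterone array lay above every vehicle array, and the vehicle array of couple 3 lay at the background signal. The ratio of signals within a couple was 2.43, 3.52 and 3.31. In the model the log2 fold change was 1.10 ± 0.20 (SE; limma adjusted p = 0.0040), which is 2.14-fold on the log2(signal + pseudocount) scale. That scale adds 28.6 to each signal and so shrinks the fold of a dim gene. Fas was number 199 of 9910 genes in order of rise.

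The mean Fas signal was 39.0 ± 14.0 (SD, n = 3) with vehicle, under the filter signal of 63.6, and 119 ± 47.4 with corticosterone, above it. With no filter the adjusted p was 0.026. The call was lost without couple 2, whose rise was the largest (adjusted p = 0.074), and without the couple in the model (0.086).

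The other Fas probe sets were near or under background. Probe set 1397221_s_at read 2.24, 25 and 1.503 with vehicle and 3.75, 54.0 and 4.90 with corticosterone, so couple 2 stood above the others under both treatments. Probe set 1369900_at read 3.67, 6.53 and 1.93 with vehicle and 29.1, 22.8 and 1.16 with corticosterone, with couple 3 not higher. Fitted without the filter, their log2 fold changes were 0.28 and 0.45 (adjusted p = 0.48 and 0.28).

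Among the 9909 other genes tested, those whose log2 signal followed Fas most closely over the 6 arrays were Ankrd28, Eno3 and Glmp, with Pearson correlations of 0.997, 0.994 and 0.990. These points share arrays and couples, and the closest of so many genes will always correlate highly. Their log2 fold changes were 0.25, 0.55 and 0.46.

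Casp6, the gene of an executioner caspase that cuts nuclear lamins and neuronal proteins, rose in each couple. In couples 1, 2 and 3 it read 189, 229 and 152 with vehicle and 341, 295 and 311 with corticosterone. The groups did not overlap, and the smallest rise was that of couple 2. The mean went from 190 ± 38.6 to 316 ± 23.6 (SD, n = 3), and the model gave 0.67 ± 0.14 (SE) on the log2 scale, which is 1.59-fold (limma adjusted p = 0.0090). The call held without any of the couples (adjusted p from 0.020 to 0.049) and was lost without the couple in the model (0.083).

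The stretches upstream of the transcription starts of Fas and Casp6 are shown because these were the members called most firmly; 6 of the 9 members had an entry in the RefSeq promoter table of GRCr8, and Bik did not. Capitals mark matches, on either strand, to the GC box GGGCGG, to the hexamer AGAACA of the glucocorticoid response element, to its relaxed palindrome ACANNNTGT, or to the TATA box letters TATAAA. Each is 250 bases long, 5′ to 3′ on the plus strand, ending at the base before the start.
Fas, chr1:241211905-241212154: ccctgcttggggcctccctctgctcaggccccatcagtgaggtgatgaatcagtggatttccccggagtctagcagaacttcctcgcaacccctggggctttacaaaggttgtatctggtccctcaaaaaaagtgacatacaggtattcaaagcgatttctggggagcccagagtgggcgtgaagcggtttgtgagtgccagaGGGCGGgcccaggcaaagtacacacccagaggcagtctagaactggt
Casp6, chr2:221140136-221140385: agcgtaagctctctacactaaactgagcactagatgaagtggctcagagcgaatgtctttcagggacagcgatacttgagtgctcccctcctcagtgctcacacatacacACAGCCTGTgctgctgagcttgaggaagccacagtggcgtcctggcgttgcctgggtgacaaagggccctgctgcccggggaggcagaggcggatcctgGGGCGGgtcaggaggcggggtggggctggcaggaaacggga

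Both held a GC box, which begins 47 bases before the start of Fas and 41 before that of Casp6. Of all 33469 promoters of the table, 30.5% hold a GC box in this window. The palindrome letters occurred once, in Casp6, beginning 140 bases before the start, and 5.81% of all promoters hold them. Neither stretch held AGAACA or TATAAA, found in 17.5% and 12.9% of all promoters. GC content was 55.6% for Fas and 60.8% for Casp6, against a median of 51.2%. A match is a run of letters and not a measured site, and a missing match speaks for this window alone.

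Casp8, the initiator caspase that Fas recruits through Fadd, lay below the filter on both of its probe sets, so it had no test beside the other members. Probe set 1380297_at read 42.7, 47.6 and 30.6 with vehicle and 57.4, 85.8 and 54.2 with corticosterone. Probe set 1369262_at read 17.9, 7.45 and 2.38 with vehicle, all at or under background, and 50.6, 44.1 and 20.8 with corticosterone. On each of them the corticosterone arrays lay above all vehicle arrays. Fitted without the filter, the log2 fold changes were 0.45 ± 0.21 and 0.82 ± 0.19 (SE), with limma adjusted p = 0.29 and 0.051, and neither passed; in that fit 6% of all probe sets did.

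Casp9, the initiator caspase of the mitochondrial route, did not pass, and its 3 probe sets differed. Probe set 1368652_at read 188, 287 and 204 with vehicle and 316, 304 and 259 with corticosterone. Each couple was higher with corticosterone, by little in couple 2, and the groups overlapped. The log2 fold change was 0.35 ± 0.14 (SE; 95% interval 0.04 to 0.66; limma adjusted p = 0.12). Probe set 1388083_a_at, just under the filter, read 60.3, 19.4 and 34.9 with vehicle and 73.6, 79.3 and 76.2 with corticosterone, with no overlap. Probe set 1370737_at read 22.4, 21.8 and 33.4 against 42.1, 20.8 and 4.55, near background and in no common direction. Without the filter the last pair had log2 fold changes of 0.70 and −0.15 (adjusted p = 0.16 and 0.83).

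Bik, a BH3-only protein of the endoplasmic reticulum that binds the protective family members, was at the edge of the threshold. It read 66.4, 133 and 139 with vehicle and 205, 187 and 173 with corticosterone. The groups did not overlap, but the vehicle array of couple 1 was low and carried most of the difference: the signal ratio was 3.09 in couple 1, 1.40 in couple 2 and 1.25 in couple 3. That array also had the lowest median signal of the 6, 108, and the part of this in the result was not tested. The log2 fold change was 0.66 ± 0.20 (SE; limma adjusted p = 0.049). It was 0.34 without couple 1 (adjusted p = 0.34), and the call was also lost without couple 2 (0.13), without the filter (0.15) or without the couple in the model (0.20).

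**Figure D2:**
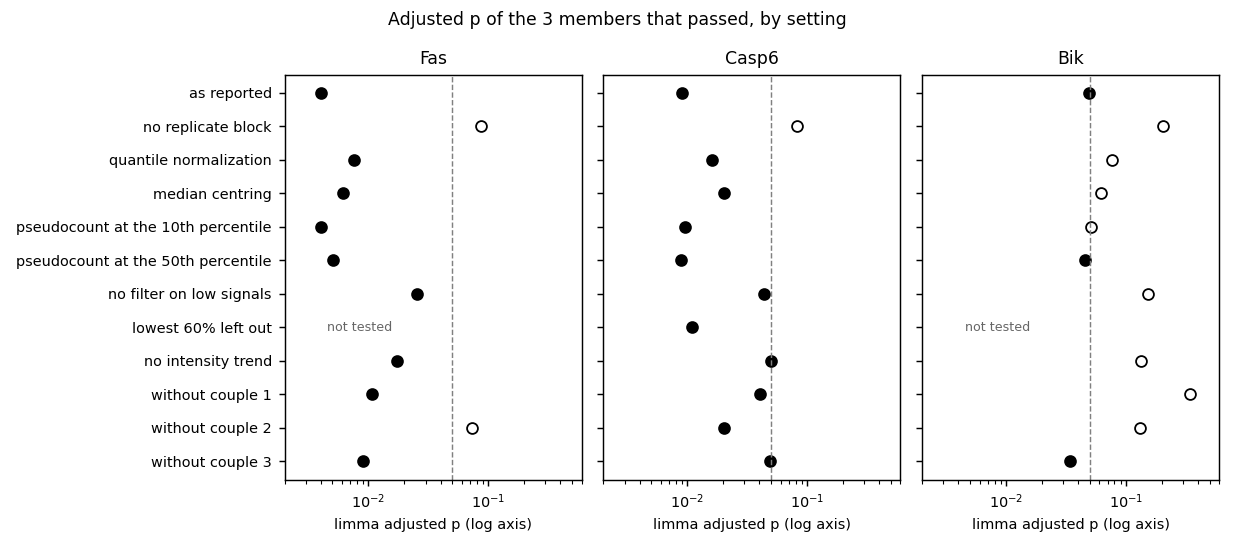
Limma adjusted p on a log axis for Fas, Casp6 and Bik as reported and under each of 11 other settings; filled points are under 0.05, the dashed line. Casp6 passed in all but the model without the couple, Fas in all but that model and the fit without couple 2 among those that tested it, and Bik with a higher pseudocount and without couple 3.

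The probe set annotated to Bax and LOC681314, 1369122_at, read 3049, 2368 and 2362 with vehicle and 2947, 2089 and 2013 with corticosterone. It was slightly lower in each couple and the groups overlapped. The log2 fold change was −0.15 ± 0.07 (SE; 95% interval −0.30 to −0.002; limma adjusted p = 0.16), and how far Bax transcript contributes to it is unknown.

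Transcripts of the protective members did not pass in either direction. Mcl1, a short-lived guardian on which many progenitors depend, was bright on probe set 1372520_at: 3960, 2967 and 2777 with vehicle and 3253, 3283 and 2463 with corticosterone. Couple 2 was higher and the others lower, and the groups overlapped. The log2 fold change was −0.10 ± 0.08 (SE), with a 95% interval of −0.28 to 0.08 and a limma adjusted p of 0.45. Probe set 1370141_at read 609, 527 and 436 against 586, 578 and 483, a log2 fold change of 0.07 (95% interval −0.14 to 0.28), which turned to −0.04 with each array centred on its median.

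Bcl2l1, which encodes Bcl-xL, read 236, 247 and 348 with vehicle on probe set 1370812_at and 308, 370.4 and 341 with corticosterone. Couples 1 and 2 were higher and couple 3 was level, so the groups overlapped. The log2 fold change was 0.28 ± 0.13 (SE; 95% interval −0.01 to 0.58; limma adjusted p = 0.18). A dimmer probe set, 1370485_a_at, gave 45.3, 82.4 and 85.5 against 79.9, 101 and 92.8, with a log2 fold change of 0.29 (adjusted p = 0.36). The remaining one, 1369180_at, lay below the filter with signals from 3.09 to 54.0.

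Bcl2 itself, the founding protective member, was dim. Its only probe set, 1387611_at, read 6.88, 36.3 and 44.7 with vehicle and 55.4, 21.0 and 29.5 with corticosterone. Couple 1 was higher and couples 2 and 3 were lower, so there was no common direction. Fitted without the filter, the log2 fold change was 0.17 with a 95% interval of −0.61 to 0.95, too wide to show a change of less than that size.

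**Figure D3:**
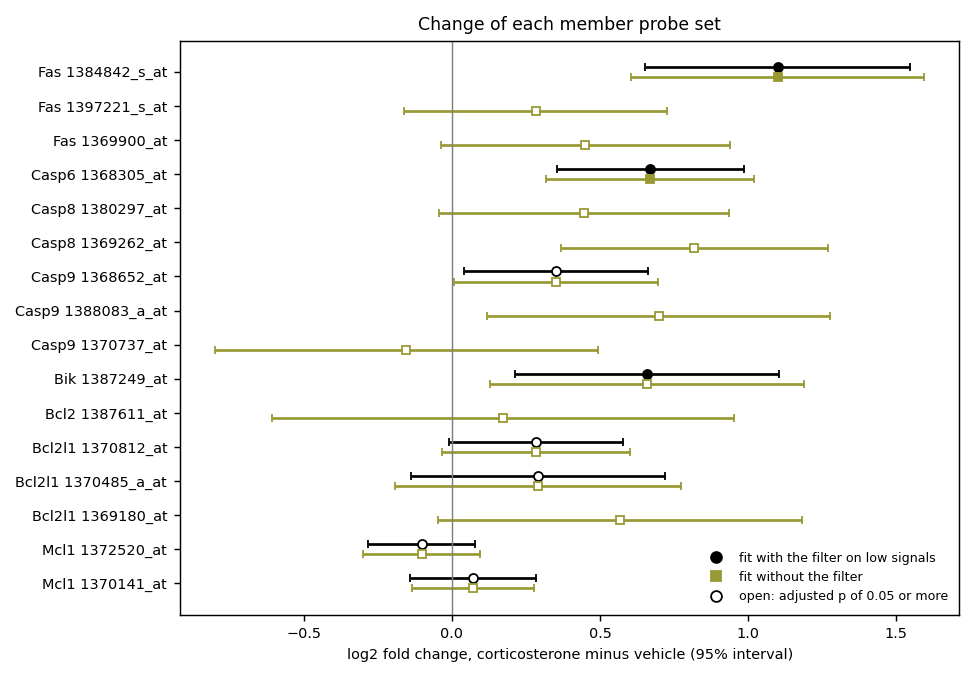
Log2 fold change of each member probe set, corticosterone minus vehicle, with its 95% interval, in the fit with the filter on low signals (black circles) and without it (olive squares); filled symbols have an adjusted p under 0.05. Fas 1384842_s_at and Casp6 are filled in both fits and Bik only in the fit with the filter.

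Seen by couple, 10 of the 16 member probe sets were higher with corticosterone in all 3 couples and 0 were lower in all 3. Of all 31042 probe sets other than controls, 7314 (23.6%) were higher in all 3 and 5689 were lower in all 3. The probe set shared by Bax and LOC681314 was lower in all 3 and is not among the 16. Probe sets of the same gene share a transcript and are not independent, and the members were chosen with earlier results of these data known. Above the filter the groups did not overlap for 3 of 8 member probe sets, all higher, against 12.5% of all. Below it they did not overlap for 3 of 8 as well, against 9.89%. Dim probe sets as a whole leaned higher, with a median log2 difference of 0.08 below the filter, against 0.45 for the 8 dim member probe sets.

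The other genes of the pathway were read from 4 lists of 64 genes, of which 53 had a probe set and 36 were bright enough to test. Of these 6 rose, 0 fell and 30 did not pass (16.7%, close to the 19.5% of all genes), with a median log2 fold change of 0.01. With each array centred on its median, 6 were higher and 3, namely Bcl2l2, Akt1 and Birc5, were lower. Without the couple in the model 2 passed, Ripk3 and Bag3.

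Of the 9 death receptor, ligand and adaptor genes tested 3 rose and 6 did not pass. Ripk3, the kinase of necroptosis, a form of death without caspases, read 33.8, 41.1 and 42.8 with vehicle and 156, 133 and 78.7 with corticosterone. The groups did not overlap, and like Fas it passed the filter only through the corticosterone arrays. Its log2 fold change was 1.12 ± 0.23 (SE; limma adjusted p = 0.0067), with the call lost without couple 1 (0.057) or couple 2 (0.076). Tnfrsf1a, the main receptor of tumour necrosis factor, read 1530, 2071 and 1803 against 2066, 2625 and 2516, higher in each couple by a similar step. Its log2 fold change was 0.41 ± 0.07 (SE, limma adjusted p = 0.0022). The call was lost without the couple in the model (0.18) or the intensity trend (0.053).

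Tnfrsf12a, a receptor of the same family that lacks a death domain, read 354, 512 and 500.4 against 714, 902 and 492. It was higher in couples 1 and 2 and level in couple 3, for a log2 fold change of 0.57 (limma adjusted p = 0.031). The call was lost without couple 1 (0.17), couple 2 (0.24), the filter (0.11), the intensity trend (0.15) or the couple in the model (0.25). The receptor gene Tnfrsf21 did not pass and lay between 552 and 591 on its brighter probe set, with a log2 fold change of −0.02 (limma adjusted p = 0.92). The receptor genes Tnfrsf1b, Tnfrsf25 and Ngfr lay below the filter. The adaptors tested around the receptors and the caspase-8 inhibitor Cflar did not pass (limma adjusted p from 0.38 to 0.98). Log2 fold changes were 0.01 for Fadd, 0.11 for Ripk1, −0.19 for Traf2 and 0.13 for Cflar. Traf2 was lower in each couple, at 215, 248 and 236 against 185, 205 and 213, with no overlap between groups. The adaptor Tradd lay below the filter, at 54.8, 9.75 and 44.2 with vehicle and 67.5, 69.2 and 60.1 with corticosterone. The ligands were dim: Faslg lay between 41.5 and 70.5, and Tnfsf10 was at or below background on all 6 arrays.

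Of 9 other caspase and apoptosome genes 1 rose, Casp4, an inflammatory caspase. It read 188, 315 and 211 with vehicle and 421, 427 and 283 with corticosterone, higher in each couple with overlap between groups. The log2 fold change was 0.61 ± 0.15 (SE, limma adjusted p = 0.016). The call was lost without couple 1 (0.13), couple 2 (0.065), the filter (0.065), the intensity trend (0.082) or the couple in the model (0.21). Endog, a mitochondrial nuclease, read 125, 175 and 160 against 218, 258 and 194, with no overlap, and missed the threshold (0.47, limma adjusted p = 0.051). It passed with the higher pseudocount (0.049) and without couple 3 (0.041), and did not pass in the other 8 settings that tested it (0.052 to 0.25). Apaf1, which assembles the apoptosome, Diablo, which relieves caspases of their inhibitors, and Casp2 had log2 fold changes of −0.10, 0.01 and −0.13.

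Of 12 other Bcl2 family genes and binding partners 2 rose. Bag3, a heat shock co-chaperone that binds Bcl2 but is no member of its family, read 201, 409 and 249 with vehicle and 840, 1011 and 610.2 with corticosterone. It rose by 1.46 ± 0.14 (SE) on the log2 scale (limma adjusted p = 6.0e-05) and passed in each of the 11 other settings. Bok, a relative of Bax, read 762, 718 and 905 against 1076, 996 and 1077. The groups did not overlap, and the log2 fold change was 0.39 ± 0.09 (SE, limma adjusted p = 0.010). The call was lost without couple 1 (0.066), couple 2 (0.095), the intensity trend (0.071) or the couple in the model (0.14). A second Bok probe set had 0.29 (adjusted p = 0.11).

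The killer gene Bak1 and the BH3-only genes Bad, Bid, Bcl2l11 (Bim) and Bbc3 (Puma) did not pass. Their log2 fold changes were 0.22, 0.09, 0.18, 0.28 and −0.19. The protective Bcl2l2 was lower in each couple, at 546, 496 and 574 against 418, 451 and 421, with no overlap between groups. Its log2 fold change was −0.31 ± 0.10 (SE, limma adjusted p = 0.071). Of 6 genes for inhibitors of apoptosis and p53 partners 0 passed in limma (2 at an unadjusted p under 0.05). Xiap, Birc2 and Birc5, which block caspases or act in mitosis, had log2 fold changes of −0.03, −0.07 and −0.12, and Mdm2, the p53 ligase and p53 target, of −0.04. The kinase Akt1, which phosphorylates Bad, had −0.20 (limma adjusted p = 0.056). It was lower in each couple, at 4055, 4229 and 4629 against 3757, 3617 and 3876, with no overlap between groups. The p53 target Tp53inp1 had 0.47 (limma adjusted p = 0.15) and was higher in each couple, also with no overlap.

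**Figure D4:**
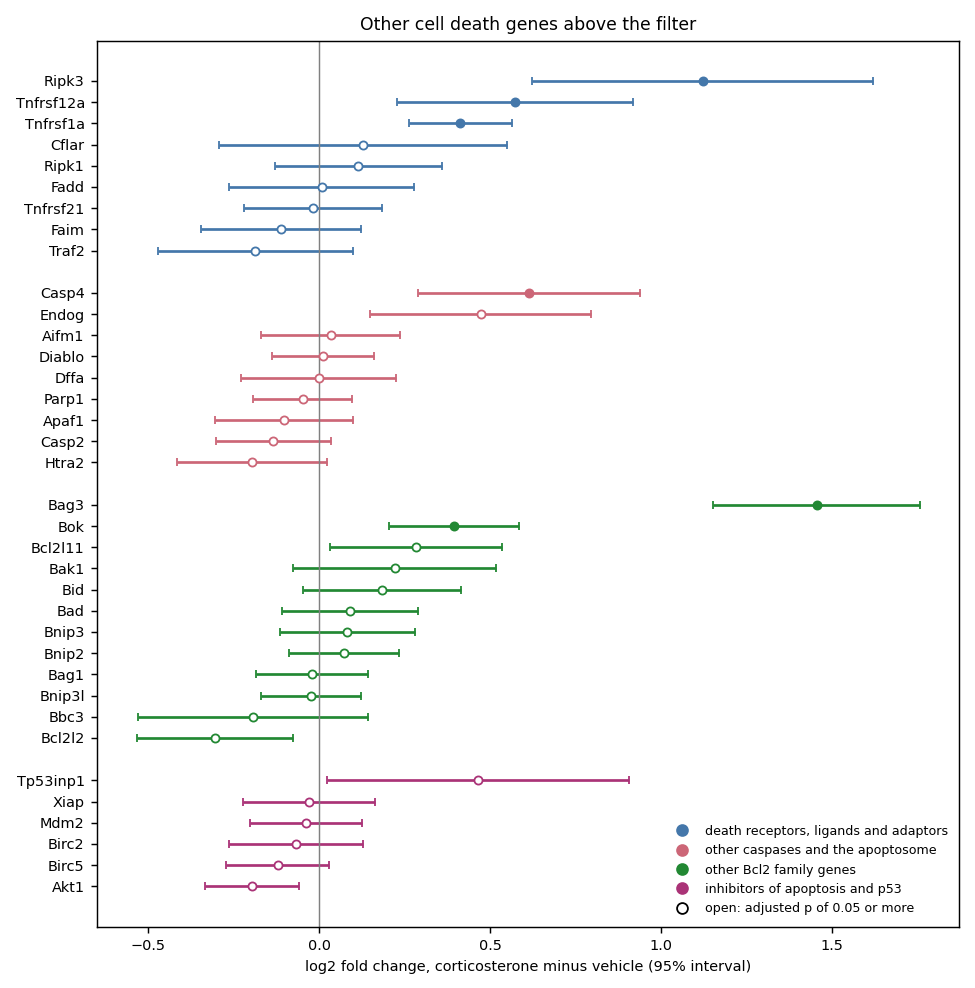
Log2 fold change, corticosterone minus vehicle, with its 95% interval for the 36 other cell death genes tested, by list and in falling order; filled points have an adjusted p under 0.05. The 6 filled points, Ripk3, Tnfrsf12a, Tnfrsf1a, Casp4, Bag3 and Bok, all lie to the right of 0.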

How the data were processed

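The authors' deposited table holds 1 column of signal intensity per array on a linear scale, made with MAS5 per the submitters' processing notes. Its trimmed mean is 500.2 on every array, and no other setting of that step was known. Gene symbols came from the platform annotation: 20826 probe sets had 1 symbol, 436 several and 9780 none, and 57 were controls. The members and gene lists were chosen with earlier results of these data known.

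From the deposited intensity values, log2(signal + 28.6) was modelled on treatment and couple (limma 3.58.1 under R 4.3.3, with lmFit and the trend option of eBayes). The added constant is the 25th percentile of the signals. Dropping the dimmest 40% of probe sets left 18625. Benjamini-Hochberg adjusted p-values cover all of them, two-sided, with a threshold of 0.05. A gene is represented by its brightest tested probe set, which gave 9910 genes. Background is the 95th percentile of 27 control probe sets without a target. All member probe sets are reported, with every other cell death gene past the threshold and further list genes by value. The fit was also run on data simulated from its own means, couple effects and spreads, with independent normal noise. Such a run checks the code alone, because the couples and the noise are built in as the model assumes them.

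The series' design text speaks of couples, so the couple was kept as a block. Deviations from the group means correlated at 0.57, 0.52 and 0.35 within couples and from −0.48 to 0.003 between them. Deviations of the 3 arrays in a group sum to 0, so positive values within couples push those between them down. The contrast is therefore no independent check of the couples. Alternatives were the model without that block, quantile normalization, median centring, other pseudocounts and filters, no intensity trend, the mean of a gene's probe sets and leaving out each couple. With 3 arrays a group, their number limits the precision.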

Additional observations from a re-analysis of the deposited data

How the results depend on the processing

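Without the replicate block for the couple, calls fell from 2953 to 417 over all probe sets, from 3 to 0 of the member genes and of their probe sets (3 at an unadjusted p under 0.05 in limma), from 6 to 2 of the cell death genes and from 15 to 5 of the cell type markers. Over all probe sets calls were 1862 without the filter, which left 4 cell death genes, and 1262 without the intensity trend, which left 2 cell death genes. With the lowest 60% left out, 1 of 4 member genes and 1 of 5 member probe sets passed, and Fas and Bik were not tested. Leaving out each couple in turn gave 1192 to 2807 calls over all probe sets, 1 to 3 member genes and member probe sets, 2 to 7 cell death genes and 12 to 15 cell type markers; the lowest counts came without couple 2. Some values near 0 changed sign. With median centring the log2 fold change was −0.036 for Mcl1 probe set 1370141_at, −0.099 for Fadd, −0.096 for Diablo, −0.017 for Bad, −0.083 for Sox2 and −0.10 for Fabp7. With quantile normalization it was −0.069 for Fadd and −0.0098 for Cflar. Over the fits without a couple the range was −0.029 to 0.040 for Fadd, −0.0097 to 0.024 for Diablo, −0.34 to 0.022 for Bbc3, −0.080 to 0.032 for Xiap and −0.034 to 0.024 for Fabp7. The cause was not tested, except that fewer arrays or probe sets enter some of these fits. Low signal limits Fas, Casp8 and Bcl2, which have arrays at or near background.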
